A study of Mus musculus with 56 samples.

Results

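The genes described here were Klf2, Klf3, Klf4, Klf6, Klf7, Klf10, and Klf13, which are 7 of the 20352 genes named in 56 lists of ChIP-seq peaks from mouse bone marrow-derived macrophages (BMDMs). In ChIP-seq, DNA bound by a protein or carrying a histone mark is recovered with an antibody and sequenced, and a peak is a stretch where this DNA piles up. All peaks that carried the name of a member in the annotation of the files were taken, whatever their distance from the gene, and they came to 4032 of 1610519 peaks. All cells were grown for 6 days in L929 supernatant from bone marrow of wild-type mice aged 8 to 12 weeks, so that no group carried a genetic change, and all were fixed with DSG and formaldehyde. In the 1 hr experiment, untreated cells were compared with cells given IL-4 (20 ng/ml) for 1 hr, with antibodies to PU.1, p300, H3K27Ac, the deacetylases HDAC1, HDAC2, and HDAC3, and the phosphorylated polymerase forms RNAPII-pS5 and RNAPII-pS2. In the second experiment, RNAPII-pS5, RNAPII-pS2, and p65 were measured in cells with neither stimulus (ctrl/ctrl), after 24 hr of IL-4 pretreatment (IL-4 PT/ctrl), after 1 hr of LPS at 100 ng/ml (ctrl/LPS), and after LPS that followed the pretreatment (IL-4 PT/LPS). Each group of each antibody held 2 samples, and paired values are given in the order of replicates 1 and 2.

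Krüppel-like factors are transcription factors that bind GC-rich DNA and CACCC boxes through zinc fingers at their C-terminal end, and they differ mainly in the part that recruits coactivators or corepressors. In macrophages, KLF4 is known as a target of IL-4 and STAT6 that takes part in alternative polarization, KLF2 as a restraint on inflammatory activation, and KLF6 as a cofactor of NF-κB target genes. KLF3 is known as a repressor that recruits CtBP, KLF10 as an early response gene of TGF-β, KLF13 as a regulator of RANTES in T cells, and KLF7 as a factor of neuronal development. Of the antibodies, RNAPII-pS5 and RNAPII-pS2 mark initiating and elongating RNA polymerase II, H3K27Ac marks active enhancers and promoters, and p300 is an acetyltransferase that places it. PU.1 is the transcription factor that defines the macrophage lineage, HDAC1, HDAC2, and HDAC3 remove acetyl groups, and p65 (RelA) is the NF-κB subunit that enters the nucleus after LPS.

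Peak scores were −log10 values of a p or a q, except for H3K27Ac, where it was a signal of normalized tags, so a difference of scores is not a fold change of binding. Peaks of 1 antibody that overlapped were merged into a region, and log2 scores were centred on the median of the regions with a peak in all samples. Where no peak was listed, the lowest centred score of the antibody was used. For some samples this set score can lie below any score that their own lists could hold, which enlarges such differences. Regions with a peak in at least 2 samples were compared with limma, and rose and fell are written only where the adjusted p over all regions or genes of the antibody (Benjamini-Hochberg) was at most 0.05. Differences are on the log2 scale and are given ± SE of the fit, with n = 2 per group. A group without a listed peak holds the set score only and has no spread of its own. A region listed in a single group passed the filter through that group, so its SE and p do not measure replicate spread in the others. The number of peaks of a sample ran from 8440 (HDAC3) to 71027 (PU.1). The p300 list of untreated replicate 1 stood apart with 44787 peaks against 66710 to 69360 in the other three, and the RNAPII-pS5 lists of ctrl/LPS were the shortest of that antibody (14476 and 15349). The p65 lists held 9556 to 11026 peaks without LPS and 26305 to 38955 with it. For RNAPII-pS2 at 1 hr, the peaks in all 4 lists are named for the opposite treatment, and the sample labels were kept, so the signs of these differences would turn if the names were right. A start-site peak, meaning a peak with its centre within 1000 bp of the start site, was looked up for RNAPII-pS5 at marker genes. In at least 1 library it was listed for 5 of 7 macrophage markers in the 1 hr experiment and 4 of 7 in the second. In all libraries it was listed for 3 of 7 and 1 of 7. None of the T cell, B cell, fibroblast, and epithelial markers had such a peak. Among 4 neutrophil markers only S100a8 had one, with scores of 3.34 to 11.2. Among the macrophage markers, Spi1 and Adgre1 had no such peak in either experiment. Of 6 genes listed as IL-4 responses, Arg1 scored 4.95 and no peak untreated and 26.2 and 18.2 with IL-4, Cish 9.79 and 7.28, then 35.5 and 36.1, and Irf4 52.3 and 24.5, then 63.8 and 58.02. Mrc1 went the other way, with 51.04 and 39.9 untreated and no peak with IL-4, Retnla had 1 peak (3.77, with IL-4), and Chil3 none. Of 4 genes listed as LPS responses, Tnf scored 39.7 and 35.1 in ctrl/ctrl and 89.4 and 78.4 in IL-4 PT/ctrl, and Nfkbia 11.4 and 16.4, then 22.8 and 14.3, with no start-site peak of either in any LPS sample. Il1b had 1 peak (IL-4 PT/ctrl) and Cxcl2 none, so start-site peaks of these 4 genes did not mark LPS. A start-site peak that is not listed does not show a loss of polymerase, since peaks centred farther off were not counted. In the 1 hr experiment, for example, Tnf had no start-site peak in untreated replicate 1 and 145 in replicate 2.

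Sequences of 7 sites are shown because the results below turn on them. Each is 300 bases of the plus strand of mm10, centred on the highest-scoring PU.1 peak (first 3 sites), p300 peak (next 2), or p65 peak (last 2), and the letters were read from the GRCm38 reference. Capitals mark matches on either strand to the STAT6 site (TTC, any 4 bases, and GAA), the PU.1 site GAGGAAGT, the NF-κB site (GGGA, any 2 bases, and TTCC), or the CACCC box CCACACCC, and these motifs did not overlap here. The first 3 sites gained p300 and H3K27Ac after 1 hr of IL-4 and lie 34.9 kb upstream of Klf4 (chr4:55567252-55567551), 13.2 kb upstream of Klf7 (chr1:64134392-64134691), and 101.4 kb upstream of Klf7 (chr1:64222588-64222887). The fourth, 17.5 kb downstream of the Klf2 start site (chr8:72336405-72336704), had p300 peaks only in the IL-4 samples, and the fifth, 331.7 kb downstream of the Klf6 start site (chr13:6193195-6193494), gained H3K27Ac and p300. The last 2 carried p65 only with LPS (70.4 kb upstream of Klf7, chr1:64191626-64191925) or only with LPS after IL-4 pretreatment (160.4 kb upstream of Klf7, chr1:64281699-64281998).
Klf4 34.9 kb upstream: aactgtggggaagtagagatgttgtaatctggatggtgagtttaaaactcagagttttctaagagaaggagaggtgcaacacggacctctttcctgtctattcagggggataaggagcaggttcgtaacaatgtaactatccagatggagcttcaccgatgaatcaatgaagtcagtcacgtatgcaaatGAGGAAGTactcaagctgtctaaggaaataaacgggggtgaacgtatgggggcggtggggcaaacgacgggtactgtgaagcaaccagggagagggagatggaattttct
Klf7 13.2 kb upstream: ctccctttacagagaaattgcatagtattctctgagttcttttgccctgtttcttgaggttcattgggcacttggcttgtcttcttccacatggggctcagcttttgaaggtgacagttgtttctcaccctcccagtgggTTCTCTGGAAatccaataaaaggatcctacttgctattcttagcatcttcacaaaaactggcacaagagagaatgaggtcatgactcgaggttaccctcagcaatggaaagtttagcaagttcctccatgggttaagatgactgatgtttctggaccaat
Klf7 101.4 kb upstream: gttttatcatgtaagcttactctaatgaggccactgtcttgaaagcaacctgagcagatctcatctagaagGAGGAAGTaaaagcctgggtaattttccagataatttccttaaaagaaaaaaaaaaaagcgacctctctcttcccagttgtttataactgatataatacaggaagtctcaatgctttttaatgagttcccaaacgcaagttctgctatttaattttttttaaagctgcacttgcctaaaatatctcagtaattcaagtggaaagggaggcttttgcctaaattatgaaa
Klf2 17.5 kb downstream: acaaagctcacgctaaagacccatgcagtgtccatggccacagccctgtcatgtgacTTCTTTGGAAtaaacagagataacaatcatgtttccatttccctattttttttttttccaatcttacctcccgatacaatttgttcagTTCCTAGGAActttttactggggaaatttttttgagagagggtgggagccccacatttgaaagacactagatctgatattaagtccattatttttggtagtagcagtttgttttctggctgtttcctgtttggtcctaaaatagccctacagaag
Klf6 331.7 kb downstream: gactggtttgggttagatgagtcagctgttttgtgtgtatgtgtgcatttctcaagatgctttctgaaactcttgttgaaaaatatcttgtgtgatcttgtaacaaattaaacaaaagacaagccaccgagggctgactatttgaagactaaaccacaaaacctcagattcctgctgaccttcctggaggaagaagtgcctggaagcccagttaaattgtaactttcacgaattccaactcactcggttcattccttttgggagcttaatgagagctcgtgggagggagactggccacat
Klf7 70.4 kb upstream: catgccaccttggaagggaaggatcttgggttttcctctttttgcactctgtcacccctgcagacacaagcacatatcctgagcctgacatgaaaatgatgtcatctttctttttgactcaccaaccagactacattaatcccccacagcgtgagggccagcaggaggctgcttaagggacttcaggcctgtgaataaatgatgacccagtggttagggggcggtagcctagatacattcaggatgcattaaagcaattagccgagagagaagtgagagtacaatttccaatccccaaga
Klf7 160.4 kb upstream: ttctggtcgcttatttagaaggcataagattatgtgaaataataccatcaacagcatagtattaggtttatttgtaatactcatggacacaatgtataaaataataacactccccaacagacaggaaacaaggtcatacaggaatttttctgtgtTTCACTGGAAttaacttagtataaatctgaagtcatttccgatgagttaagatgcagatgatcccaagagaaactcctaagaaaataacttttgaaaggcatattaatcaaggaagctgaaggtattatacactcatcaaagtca

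The window upstream of Klf4 held the PU.1 site, as did that 101.4 kb upstream of Klf7. The STAT6 site was found 13.2 kb and 160.4 kb upstream of Klf7, and at 2 places downstream of Klf2. No letters of the 4 motifs were in the other 2 windows, which says nothing about the binding of these factors. Over windows of the same length, the STAT6 site was in 19 of 150 PU.1 regions of the members (12.7%, against 8.83% of all PU.1 regions), in 27 of 177 p300 regions (15.3% against 13.3%), and in 14 of 104 p65 regions (13.5% against 11.5%). The PU.1 site was in 32 of 150 PU.1 regions of the members (21.3% against 30.1%), and the NF-κB site in 7 of 104 p65 regions (6.73% against 5.27%). A match is a description of the letters and not evidence of a bound site.

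Most peaks of the members lay far from the genes. Of the 4032 peaks, 83.4% were intergenic and 184 had their centre within 1000 bp of a start site. Across antibodies the peaks fell into 281 loci, of which 97 were seen with at least 5 antibodies and 55 in 1 library only. Klf4 (chr4:55527143-55532466, minus strand) had the most, with 1146 peaks at 90 loci that reached 602.2 kb upstream, and 96.7% of them were intergenic. Klf6 (chr13:5861482-5870394, plus strand) had 779 peaks at 55 loci that reached 332.4 kb downstream, and Klf7 (chr1:64029447-64122282, minus strand) had 693 peaks at 62 loci that reached 202.8 kb upstream. The compact loci were those of Klf3 (chr5:64803388-64832901, plus strand) with 474 peaks at 25 loci, Klf13 (chr7:63886351-63938915, minus strand) with 343 at 17, Klf2 (chr8:72319033-72321656, plus strand) with 327 at 15, and Klf10 (chr15:38291463-38300706, minus strand) with 270 at 17. Klf2 had the lowest share of intergenic peaks (62.4%). Its loci 31.2 to 49.2 kb downstream of the start site, however, overlap the protein-coding gene Eps15l1. Peaks of Klf2 that are not intergenic, and its sums, therefore include signal inside another gene. The nearest-gene name of a distant peak is an assignment by position, and the peaks 68.3 to 180.7 kb upstream of Klf7 overlap the lincRNA gene Gm28981 in GENCODE vM21. The site 34.9 kb upstream of Klf4 overlaps the lincRNA gene Gm12511. Peaks 25.6 to 148.5 kb downstream of the Klf6 start site overlap the lincRNA genes Gm47507 or Gm46401. Peaks upstream of Klf3 overlap Gm20033 (processed transcript), and those 15.3 kb upstream of Klf2 overlap Gm10282 (protein-coding). The sites 84.1 kb upstream of Klf10 and 72.9 kb upstream of Klf13 overlap the lincRNA genes Gm26863 and Gm32633. A sum of scores over the peaks of a gene grows with the number of its peaks, so sums are compared between groups and not between genes.

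The strongest member region differed between antibodies. RNAPII-pS5 scores of the 1 hr experiment were highest at the Klf2 start site, with 186 and 163 untreated and 195 and 198 with IL-4. The Klf7 start site scored 146 and 126 untreated and 129 and 119 with IL-4. Neither difference passed the test (0.29 ± 0.13, limma adjusted p = 0.304, and -0.02 ± 0.13, adjusted p = 0.945), and for Klf2 the IL-4 scores were above and for Klf7 partly within the untreated range. The Klf4 start site scored 99.3 and 76.2 untreated and 58.1 and 68.4 with IL-4 (limma adjusted p = 0.294), Klf3 76.2 and 62.8 against 83.5 and 59.3 (adjusted p = 0.727), Klf6 48.1 and 28.8 against 43.7 and 53.3 (adjusted p = 0.263), and Klf13 45.4 and 38.1 against 29.3 and 33.7 (adjusted p = 0.472). For Klf10 no RNAPII-pS5 region had its centre within 1000 bp of the start site. RNAPII-pS2 was highest at the Klf7 start site (42 and 52.9 untreated, 64.7 and 39.7 with IL-4 by the labels), and PU.1 was highest 7.6 kb upstream of Klf3, at 133 and 144 against 169 and 183. The highest p300 score was 3.6 kb downstream of the Klf2 start site (157 and 266, then 246 and 230.5), and the highest H3K27Ac signal was 27.1 kb downstream of the Klf6 start site (539 and 563, then 566 and 596). HDAC1 and HDAC2 peaked at the same place, 11.6 kb downstream of the Klf10 start site, and HDAC3 209.1 kb upstream of Klf4 (48.6 and 35.1, then 59.98 and 33.9). PU.1 had a start-site region at 1 member (Klf7, 29.9 and 15.5, then 36.7 and 15.9), and HDAC3 had none at any. Start-site scores of p300 were low, at 2.79 to 16.8 for Klf3, Klf4, and Klf7, with 1 listed peak for Klf13 (3.89), and 9.68 and 13.2 untreated against 31.4 and 29.4 with IL-4 for Klf6. None of these p300 differences passed the test. HDAC1 and HDAC2 start-site peaks scored 2.96 to 7.62 where listed.

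H3K27Ac after 1 hr of IL-4 split the members into genes whose acetylation rose and genes whose acetylation fell. Of 59 member regions, 20 rose and 14 fell, or 57.6%, against 46.5% of all H3K27Ac regions called (21.9% higher and 24.6% lower). The summed signal of Klf7, Klf4, and Klf6 rose and that of Klf10, Klf13, Klf2, and Klf3 fell, so all 7 sums passed the test, where 38.7% of all genes did. All IL-4 sums lay outside the range of the untreated sums for each member. All 7 also passed with plain empirical Bayes and without any 1 library, but with the highest peak in place of the sum Klf3 and Klf6 no longer passed, nor did Klf2 and Klf7 with only peaks that are not intergenic. Sums of the other antibodies were less stable: over all the called sums of members, 22 of 31 no longer passed with plain empirical Bayes, and of these 22 none was of H3K27Ac. The 9 that still passed included all 7 of H3K27Ac and the RNAPII-pS5 sum of Klf13 with LPS, so nearly all other called sums of polymerase, PU.1, p300, and p65 did not.

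**Figure D1:**
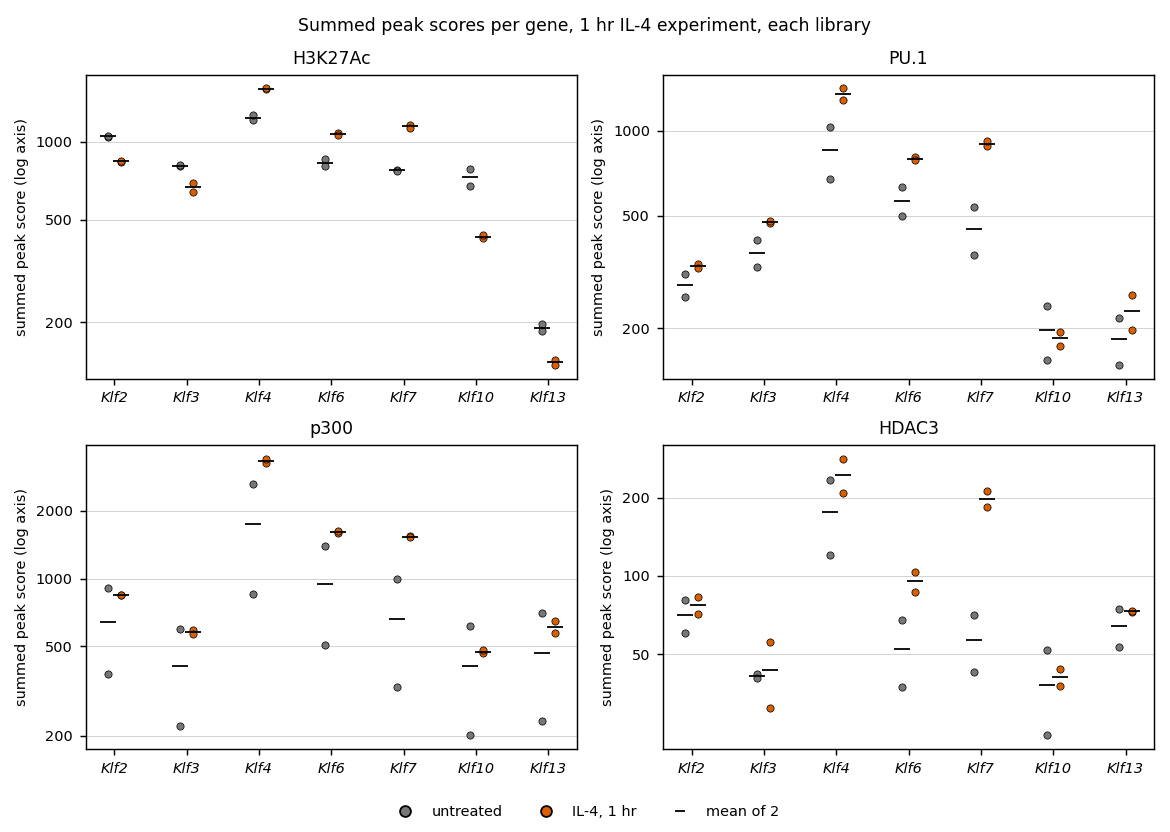
Summed peak score of each member gene (log axis) for H3K27Ac, PU.1, p300, and HDAC3 in the 1 hr experiment, with a point for each library and a dash for the mean of 2 libraries. H3K27Ac sums of Klf4, Klf6, and Klf7 sat higher with IL-4 and those of Klf2, Klf3, Klf10, and Klf13 lower, while for p300 untreated replicate 1 sat below untreated replicate 2 for every gene.

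For Klf7 the summed H3K27Ac signal was 777 and 773 untreated and 1165 and 1136 with IL-4 (0.58 ± 0.04, limma adjusted p = 0.000292), and 6 of its 7 regions rose while none fell. The region 101.4 kb upstream of Klf7 had 22.7 and 28.4 untreated and 108 and 94.4 with IL-4 (2.04 ± 0.14, adjusted p = 0.000273). The region 13.2 kb upstream had no peak in the untreated samples and 40.1 and 32.6 with IL-4 (2.04 ± 0.17, adjusted p = 0.00048). Stronger H3K27Ac regions of Klf7 moved less on this scale: 174.2 kb upstream the signal rose from 230.5 and 209 to 388 and 356, and at the start site from 287 and 279.9 to 323 and 364 (0.33 ± 0.06, adjusted p = 0.0101).

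For Klf4 the sum was 1214 and 1268 untreated and 1595 and 1611 with IL-4 (0.38 ± 0.04, limma adjusted p = 0.00167), with 9 of 20 regions higher and 1 lower. The region 273.0 kb upstream had the smallest p of all member regions, with 81.7 and 86.2 untreated and 245 and 267 with IL-4 (1.66 ± 0.07, adjusted p = 3.5e-05). Acetylation 34.9 kb upstream of Klf4 was listed only with IL-4, at 45 and 33.7 (2.15 ± 0.19, adjusted p = 0.000611), and the Klf4 start site rose from 157 and 157 to 200.3 and 206 (0.42 ± 0.05, adjusted p = 0.00172). The exception was the region 431.7 kb upstream, where the signal fell from 144 and 143 to 77.8 and 81.2 (-0.80 ± 0.06, adjusted p = 0.000397). The Klf4 regions therefore did not move as a block, and 10 of the 20 did not pass the test.

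For Klf6 the sum was 804 and 858 untreated and 1085 and 1058 with IL-4 (0.37 ± 0.05, limma adjusted p = 0.00325), with 4 of 11 regions higher and 1 lower. The 2 largest of these lay far downstream. At 331.7 kb the signal rose from 73.1 and 72.8 to 185 and 188 (1.41 ± 0.06, adjusted p = 3.8e-05), and at 266.1 kb from 54.9 and 55.9 to 157 and 156 (1.55 ± 0.07, adjusted p = 4.0e-05). The strongest Klf6 region, 27.1 kb downstream of the start site, did not pass (adjusted p = 0.0617).

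The 4 other members lost acetylation. All 4 Klf10 regions fell, and the sum was 675 and 787 untreated and 423 and 437 with IL-4 (-0.76 ± 0.09, limma adjusted p = 0.00276). The region with its centre nearest the Klf10 start site fell from 314 and 298 to 193 and 197 (-0.60 ± 0.05, adjusted p = 0.000467). Klf2 had 3 of 4 regions lower and 1 higher, and its sum went from 1048 and 1052 to 838 and 843 (-0.31 ± 0.04, adjusted p = 0.00201). The region 31.2 kb downstream of the Klf2 start site fell from 374 and 401 to 241 and 245, and the one 3.6 kb downstream from 205 and 202 to 150.0 and 134 (-0.47 ± 0.07, adjusted p = 0.00468). The region at 31.2 kb overlaps the protein-coding gene Eps15l1, so its signal need not belong to Klf2. Klf13 fell from 197 and 185 to 144 and 137 (-0.44 ± 0.07, adjusted p = 0.00502), with 2 of 4 regions lower. Klf3, whose product is a repressor, fell from 809 and 810.3 to 694 and 639 (-0.28 ± 0.05, adjusted p = 0.00985), with 3 of 9 regions lower, while its start site (196 and 198, then 183 and 169) did not pass (adjusted p = 0.201). When only peaks that are not intergenic were summed, the sign of Klf10 turned (1.86).

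The coactivator p300 rose at 17 of 177 member regions after 1 hr of IL-4 and fell at 1 (10.2%, against 6.99% of all p300 regions called, 5.8% higher and 1.19% lower). The regions that rose belonged to Klf4 (7 of 61), Klf7 (6 of 28), Klf6 (3 of 34), and Klf2 (1 of 12), and the one that fell to Klf3. In 7 of these 18, 1 group had no peak. By the lists alone, p300 peaks in both IL-4 samples and neither untreated sample were found at 15 of 167 member regions (11.8% of all regions), and the reverse at 3 (1.1%). The low untreated replicate 1 bears on all of them: without it 37 member regions were higher and 10 lower. Without untreated replicate 2 the count was 83, and without centring, which removed a shift of 0.67 in these regions, it was 0.

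Upstream of Klf7, p300 scored 5.33 and 20.2 untreated and 221 and 218 with IL-4 at 13.2 kb (3.73 ± 0.15, limma adjusted p = 0.0127), or 3.52 without untreated replicate 1. At 101.4 kb upstream it scored 20.2 and 72.5, then 220.4 and 201 (1.79 ± 0.14, adjusted p = 0.0194). At 34.9 kb upstream of Klf4 p300 scored 11.1 and 50.8, then 213 and 206 (2.47 ± 0.23, adjusted p = 0.0247). In these 3 places each IL-4 score was above both untreated scores, and the IL-4 scores were close to those of the strongest p300 region of the family. Downstream of Klf6, p300 rose at 331.7 kb from 14.5 and 48.3 to 170.2 and 189 (2.09 ± 0.12, adjusted p = 0.0136, and 1.98 without untreated replicate 1), and at 266.1 kb from 27.1 and 73.97 to 229 and 239 (1.72 ± 0.13, adjusted p = 0.0179, and 1.75 without it). The largest difference was 17.5 kb downstream of Klf2, where no p300 peak was listed in the untreated samples and the IL-4 samples scored 85.8 and 71.99 (5.81 ± 0.40, adjusted p = 0.0155, and 5.8 without untreated replicate 1). That p300 region entered the test only through the IL-4 samples. No H3K27Ac region with the name of Klf2 was listed at that place. The region 273.0 kb upstream of Klf4, with the smallest H3K27Ac p, scored 21.5 and 46.4, then 136 and 120.3, and did not pass for p300 (1.35 ± 0.24, adjusted p = 0.0558). At 30.9 kb downstream of the Klf3 start site p300 fell (-0.97 ± 0.13, adjusted p = 0.04), but the listed scores overlapped (38.2 and 114, then 50.4 and 57.5), so this difference rests on the centring.

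Summed over a gene, p300 rose for Klf7 (330.1 and 992 untreated, 1554 and 1523 with IL-4, 0.57 ± 0.11, limma adjusted p = 0.023) and fell for Klf10 (201 and 617, then 466 and 479.7, -0.43 ± 0.11, adjusted p = 0.0468), where 15.5% of all genes were called. Without untreated replicate 1 the differences were 0.62 and -0.39, both called. The Klf10 sums of the groups overlapped, and without centring the Klf10 difference was 0.42. With only peaks that are not intergenic it was 1.37, and neither p300 sum passed with plain empirical Bayes.

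**Figure D2:**
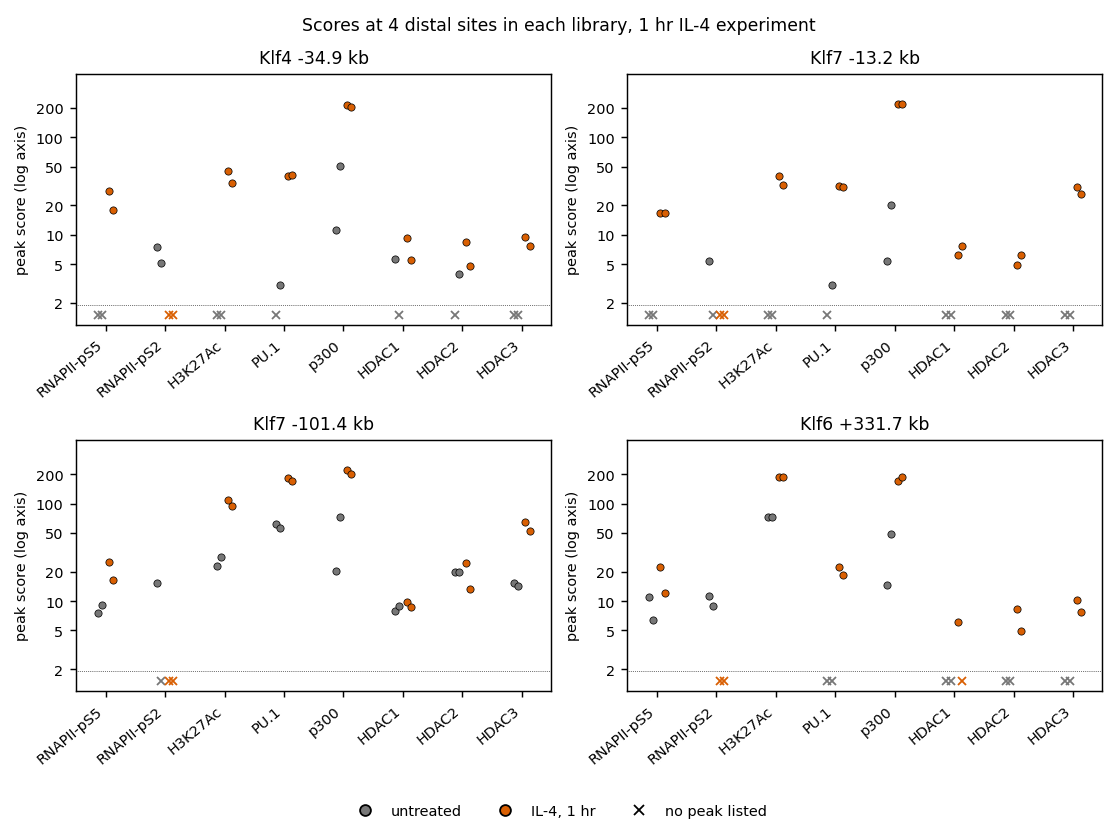
Peak scores (log axis) of 8 antibodies at 4 sites, 34.9 kb upstream of Klf4, 13.2 kb and 101.4 kb upstream of Klf7, and 331.7 kb downstream of the Klf6 start site, in untreated and IL-4 libraries, with crosses below the dotted line where no peak is listed. At 13.2 kb upstream of Klf7 no H3K27Ac, RNAPII-pS5, HDAC1, HDAC2, or HDAC3 peak is listed without IL-4 and each has 2 with it. RNAPII-pS2 is plotted by the sample labels, while the names of its peaks give the opposite treatment.

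PU.1 passed the test at none of 150 member regions in limma, nor did any of the 67996 PU.1 regions (0.0%). At an unadjusted p of at most 0.05, 22 member regions were higher and 4 lower (6.31% and 3.54% of all regions), and the alternative settings gave 0 to 26 calls. A PU.1 peak in both IL-4 samples and in neither untreated sample was listed at 13 of 132 member regions (6.52% of all regions), and the reverse at 2 (4.22%). PU.1 sums of 2 members did rise, where 1.46% of all genes were called. Klf7 went from 537 and 362 to 884 and 918 (0.74 ± 0.09, limma adjusted p = 0.00251), and Klf4 from 1032 and 675 to 1412 and 1289 (0.40 ± 0.07, adjusted p = 0.0173). In both, each IL-4 sum lay above both untreated sums, and neither passed with plain empirical Bayes or without centring. At single sites the values were large but did not pass: 62.3 and 56.2, then 185 and 169.8 at 101.4 kb upstream of Klf7 (1.25 ± 0.19, adjusted p = 0.427). At 34.9 kb upstream of Klf4 PU.1 had no peak and 3.03, then 40.05 and 41 (adjusted p = 0.49), and at 13.2 kb upstream of Klf7 no peak and 3.03, then 31.9 and 30.6 (adjusted p = 0.499). At 331.7 kb downstream of Klf6 PU.1 peaks were listed only with IL-4 (22.2 and 18.6).

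RNA polymerase II showed no called region at the members after 1 hr of IL-4. For RNAPII-pS5 limma called 0 of 73 member regions and 0.0% of all regions, with 13 higher and 10 lower at an unadjusted p of at most 0.05 (10.7% and 10.2% of all regions), and leaving out each library in turn gave 2 to 6 calls. None of the 7 RNAPII-pS5 sums passed (2.19% of all genes did). The smallest p was 34.9 kb upstream of Klf4, where RNAPII-pS5 peaks were listed only with IL-4, at 27.8 and 17.98 (4.04 ± 0.49, adjusted p = 0.166). At 13.2 kb upstream of Klf7 they were likewise listed only with IL-4, at 16.8 and 16.7 (adjusted p = 0.166). At 101.4 kb upstream of Klf7 the scores were 7.51 and 9.02, then 24.97 and 16.6, and at 331.7 kb downstream of Klf6 10.9 and 6.45, then 22.2 and 12.2. All 4 sites therefore had higher listed scores in the IL-4 samples than in the untreated samples, without passing the test.

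For RNAPII-pS2 limma called 0 of 33 member regions (0.0% of all regions), with 3 higher and 6 lower at an unadjusted p of at most 0.05 (10.5% and 11.6% of all regions) and 1 to 4 calls when each library was left out. The sum of Klf4 was 73.9 and 97.9 in the libraries labelled untreated and 16.1 and 28.8 in those labelled IL-4 (-1.90 ± 0.23, limma adjusted p = 0.0243), where 1.3% of all genes were called. Most called RNAPII-pS2 sums of members did not pass with plain empirical Bayes. By the names of the peaks the sign of the Klf4 difference would be the opposite. The same holds 6.0 kb downstream of the Klf4 start site (21.9 and 30.9, then 5.79 and 5.63, adjusted p = 0.156) and 34.9 kb upstream (7.44 and 5.19, then no peaks), where RNAPII-pS5 ran the other way. Peaks in both libraries labelled untreated and neither labelled IL-4 were listed at 4 of 27 member regions, and the reverse at 1 (1563 and 1148 of 16227 over all regions). Besides 34.9 kb upstream, the 4 lay 273.0 kb (6.74 and 8.96) and 279.4 kb upstream of Klf4 (5.88 and 6.68) and 331.7 kb downstream of Klf6 (11.2 and 8.96). By its own labels, H3K27Ac rose with IL-4 at 34.9 kb and 273.0 kb upstream of Klf4 and 331.7 kb downstream of Klf6 (2.15, 1.66, and 1.41). At 279.4 kb upstream of Klf4 a p300 region rose (1.54). The paper reports Klf4 mRNA as activated by IL-4. Whether labels or peak names of RNAPII-pS2 are right was not tested.

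The 3 deacetylases gave no called member region after 1 hr of IL-4 and 0.0% over all regions, in each case by limma. At an unadjusted p of at most 0.05, HDAC1 had 6 higher and 8 lower of 63 (4.46% and 10.8% of all regions), HDAC2 5 higher and 2 lower of 68 (7.1% and 4.6%), and HDAC3 10 higher and 1 lower of 48 (15.4% and 5.22%). Leaving out each library in turn gave 0 calls for HDAC1 and HDAC2 and 1 to 7 for HDAC3. No sum of a member passed for any of the 3 (0.0% of all genes). HDAC3 peaks in both IL-4 samples and no untreated sample were listed at 7 of 45 member regions (14.9% over all regions), and the reverse at 1 (3.17%). At 13.2 kb upstream of Klf7 HDAC3 was listed only with IL-4, at 31.1 and 25.9 (4.33 ± 0.50, adjusted p = 0.16). At 101.4 kb upstream it scored 15.2 and 14.3, then 65.4 and 52.1 (1.70 ± 0.23, adjusted p = 0.16), and the Klf7 sum was 71 and 42.7, then 212 and 183 (1.42 ± 0.13, adjusted p = 0.147). At 34.9 kb upstream of Klf4 it was listed only with IL-4 (9.5 and 7.69), as it was 331.7 kb downstream of Klf6 (10.3 and 7.8). HDAC1 and HDAC2 scored 4.9 to 7.7 in the IL-4 samples 13.2 kb upstream of Klf7, where neither was listed without IL-4. At 11.6 kb downstream of the Klf10 start site HDAC1 scored 55.2 and 42.5, then 21.4 and 17.2 (-1.02 ± 0.17, adjusted p = 0.275), and HDAC2 59.8 and 46.3, then 44.4 and 33.4 (-0.52 ± 0.15, adjusted p = 0.425). The smallest HDAC2 p was 279.4 kb upstream of Klf4 (3.08 ± 0.73, adjusted p = 0.425).

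In the second experiment, 1 hr of LPS moved the RNA polymerase II of the members in different directions. For RNAPII-pS5, 13 of 66 member regions rose and 6 fell (28.8%, against 30.0% of all regions, 11.2% higher and 18.8% lower). For RNAPII-pS2 26 of 106 rose and 11 fell (34.9% against 32.3%, 17.7% higher and 14.6% lower), so the totals were near those of all regions. By direction they were not: 19.7% of the member regions rose and 9.09% fell for RNAPII-pS5, and 24.5% rose and 10.4% fell for RNAPII-pS2. No test of this difference was made. In 11 of the 19 and 23 of the 37 calls, 1 group had no peak. The LPS, 24 hr IL-4, and pretreatment comparisons share samples (ctrl/ctrl or ctrl/LPS), and their values are given side by side.

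**Figure D3:**
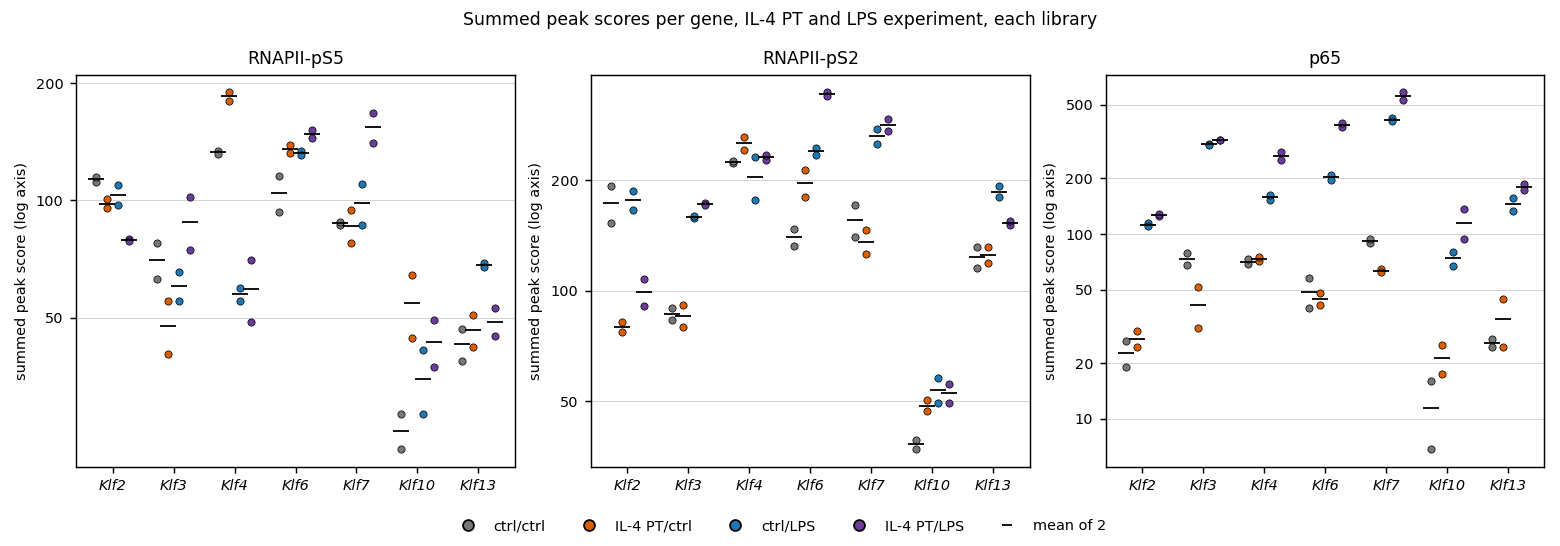
Summed peak score of each member gene (log axis) for RNAPII-pS5, RNAPII-pS2, and p65 in the 4 groups of the second experiment, with a point for each library and a dash for the mean of 2 libraries. RNAPII-pS5 of Klf4 was lower in the groups with LPS and p65 was higher with LPS for every member.

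Klf6 had more of both forms of the polymerase after LPS. Its RNAPII-pS5 sum was 93.2 and 115 in ctrl/ctrl and 134 and 131 in ctrl/LPS (0.68 ± 0.14, limma adjusted p = 0.0153), where 29.3% of all genes were called, and its RNAPII-pS2 sum was 147 and 133, then 244 and 234 (0.55 ± 0.07, adjusted p = 0.00151), where 32.1% were. RNAPII-pS5 peaks 248.0 kb downstream of Klf6 were absent from the ctrl/ctrl lists and scored 13.7 and 11.3 in ctrl/LPS (3.30 ± 0.26, adjusted p = 0.00152). Klf13 rose too, with RNAPII-pS5 sums of 46.7 and 38.7, then 69 and 67.6 (1.01 ± 0.17, adjusted p = 0.00766), and RNAPII-pS2 sums of 115 and 131, then 192 and 179.8 (0.37 ± 0.10, adjusted p = 0.0313). The strongest RNAPII-pS2 region of the family, 72.9 kb upstream of Klf13, rose from 54.8 and 57.2 to 111 and 111 (0.79 ± 0.10, adjusted p = 0.00236). For the repressor gene Klf3 RNAPII-pS2 rose from 83.2 and 89.7 to 158 and 159 (0.65 ± 0.14, adjusted p = 0.0107). These sums depend on distant peaks: with only peaks that are not intergenic the difference was -1.27 (RNAPII-pS5) and -1.43 (RNAPII-pS2) for Klf6, and -1.11 (Klf13) and -0.29 (Klf3) for RNAPII-pS2, each with the sign turned. With plain empirical Bayes the RNAPII-pS5 sum of Klf13 passed, and the other called sums of these 3 genes did not.

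Klf7 rose with LPS in sum, at 172 and 140.4, then 251 and 275 for RNAPII-pS2 (0.54 ± 0.11, limma adjusted p = 0.00936), and at 86.6 and 87.9, then 86.3 and 110.3 for RNAPII-pS5 (0.49 ± 0.15, adjusted p = 0.0485), where the listed sums of the groups overlapped. Both signs turned with only peaks that are not intergenic (-0.09 and -1.35) and with the highest peak in place of the sum (-0.05 and -0.57). Most called LPS sums of Klf7 and Klf4, taken over both forms of the polymerase, did not pass with plain empirical Bayes. The start site and the gene body of Klf7 went apart. At the start site RNAPII-pS5 fell from 36.4 and 35.98 to 20.6 and 15.8 (-0.82 ± 0.22, adjusted p = 0.0435), and RNAPII-pS2 from 42.2 and 34.98 to 16.3 and 13.3 (-1.57 ± 0.14, adjusted p = 0.00088). Inside the first stretch of the gene (chr1:64120004-64120877, intron) RNAPII-pS5 was listed only with LPS (12.04 and 13.2, 3.31 ± 0.30, adjusted p = 0.00153), and 67.6 kb into the gene RNAPII-pS2 was listed only with LPS (30.1 and 28.5, 4.33 ± 0.24, adjusted p = 0.00055). At 70.4 kb upstream of Klf7, RNAPII-pS2 (29.9 and 22.8) and RNAPII-pS5 (6.27 and 8.61) peaks were absent from ctrl/ctrl and rose with LPS (4.16 ± 0.42 and 2.54 ± 0.27, adjusted p = 0.00132 and 0.00189), and at 165.9 kb upstream RNAPII-pS2 did so (23.2 and 18.2, 3.82 ± 0.24, adjusted p = 0.000646).

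Klf4 went the other way for both forms, but its called sums did not both pass with plain empirical Bayes. Its RNAPII-pS5 sum was 134 and 132 in ctrl/ctrl and 55.2 and 59.6 in ctrl/LPS (-0.89 ± 0.17, limma adjusted p = 0.0104). Its RNAPII-pS2 sum was 222 and 225, then 232 and 177 (-0.37 ± 0.10, adjusted p = 0.0313), and these listed sums overlapped, so the difference is relative to the median of all genes. The region 209.1 kb upstream of Klf4 lost both, with RNAPII-pS5 at 18.1 and 15.2, then no peak (-3.53 ± 0.24, adjusted p = 0.00152), and RNAPII-pS2 at 38.6 and 41.4, then 14.9 and 8.46 (-2.02 ± 0.27, adjusted p = 0.00321). In contrast, 9.2 kb upstream of Klf4 RNAPII-pS2 was absent without LPS and scored 14.9 and 15.5 with it (3.38 ± 0.23, adjusted p = 0.00072). The Klf4 start site scored 16.4 and 9.42 for RNAPII-pS5 in ctrl/ctrl, with no peak and 5.8 in ctrl/LPS (adjusted p = 0.101). RNAPII-pS2 at the start sites of Klf3 (6.27 and 4.4, then none) and Klf13 (8.81 and 9.09, then none) fell (-2.04 ± 0.21 and -2.81 ± 0.67, adjusted p = 0.00136 and 0.0269). RNAPII-pS5 fell 22.4 kb upstream of Klf3 (11.9 and 16.98, then none, -3.31 ± 0.29, adjusted p = 0.00153), and RNAPII-pS2 rose 53.0 kb downstream of its start site (none, then 17.3 and 17.9, 3.59 ± 0.23, adjusted p = 0.000706). The Klf2 start site, the strongest RNAPII-pS5 region of the family also here, scored 58.9 and 44.3 in ctrl/ctrl, 45.4 and 56.3 in IL-4 PT/ctrl, 47.9 and 47.01 in ctrl/LPS, and 51.9 and 44.4 in IL-4 PT/LPS, and all groups overlapped.

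IL-4 pretreatment for 24 hr without LPS raised RNAPII-pS5 at 11 of 66 member regions and lowered it at 3 (21.2%, against 15.9% of all regions, 9.15% higher and 6.79% lower). It raised RNAPII-pS2 at 16 of 106 and lowered it at 6 (20.8% against 21.9%, 11.7% higher and 10.2% lower). Of these calls, 11 of 14 and 17 of 22 had no peak in 1 group, and leaving out each library in turn gave 6 to 15 and 14 to 26 calls. Klf4 held the most of the raised regions, with 7 of 18 for RNAPII-pS5 and 8 of 30 for RNAPII-pS2. At 34.9 kb upstream of Klf4, where 1 hr of IL-4 had raised p300 and H3K27Ac, RNAPII-pS2 was not listed in ctrl/ctrl and scored 11.8 and 10.4 in IL-4 PT/ctrl (3.17 ± 0.33, limma adjusted p = 0.00178), and RNAPII-pS5 scored 15.7 and 20.2 (3.62 ± 0.72, adjusted p = 0.0251). At 331.7 kb downstream of Klf6 RNAPII-pS2 was not listed in ctrl/ctrl and scored 20.8 and 31.9 in IL-4 PT/ctrl (4.39 ± 0.23, adjusted p = 0.000925), and RNAPII-pS5 15.1 and 13.4 (3.29 ± 0.29, adjusted p = 0.00293). Without LPS, both polymerase forms were thus listed at both places in IL-4 PT/ctrl and in neither ctrl/ctrl sample. With missing peaks set 4 times as high the RNAPII-pS5 difference at the Klf6 site was 1.29, and with merging by overlap of centres 1.67, and neither passed. In the 1 hr experiment RNAPII-pS5 was listed at the Klf6 site in untreated cells too.

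Other regions raised by 24 hr of IL-4 alone were 198.1 kb upstream of Klf4 for RNAPII-pS5 (none, then 13.7 and 11.8, 3.13 ± 0.28, limma adjusted p = 0.00293), 279.4 kb upstream of Klf4 (none, then 6.14 and 8.48, 2.31 ± 0.24, adjusted p = 0.00301), and 84.1 kb upstream of Klf10. At the last the RNAPII-pS5 score was 11.6 and 11.96 in ctrl/ctrl and 36.7 and 38.1 in IL-4 PT/ctrl (1.65 ± 0.17, adjusted p = 0.00304), where H3K27Ac fell after 1 hr of IL-4 (-0.28 ± 0.07, adjusted p = 0.022). For RNAPII-pS2 they were 199.7 kb (none, then 8.59 and 11.7), 43.0 kb (none, then 5.4 and 6.33), and 9.2 kb (none, then 6.38 and 9.31) upstream of Klf4, with differences of 3.03 ± 0.22, 2.25 ± 0.18, and 2.64 ± 0.23. The Klf4 start site fell for RNAPII-pS5, from 16.4 and 9.42 to no peak in IL-4 PT/ctrl (-3.12 ± 0.74, adjusted p = 0.0467). In these same samples, and in no other group, RNAPII-pS5 was listed 1.1 kb (6.45 and 4.95) and 6.0 kb (7.35 and 5.75) downstream of the Klf4 start site. Of the sums, RNAPII-pS2 rose for Klf6 (147 and 133, then 180.2 and 213, 0.56 ± 0.07, adjusted p = 0.00245) and fell for Klf2 (193 and 153, then 77.4 and 82.3, -1.04 ± 0.14, adjusted p = 0.00342), where 19.7% of all genes were called. With the highest peak in place of the sum the Klf6 difference was -0.08. The Klf6 and Klf2 sums did not both pass with plain empirical Bayes. No RNAPII-pS5 sum passed (7.66% of all genes did), including that of Klf4 at 134 and 132, then 181 and 189.6.

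Under LPS, pretreated cells were compared with cells not pretreated. RNAPII-pS5 rose at 7 of 66 member regions and fell at 2 (13.6%, against 14.4% of all regions, 9.11% higher and 5.28% lower), and RNAPII-pS2 rose at 16 of 106 and fell at 6 (20.8% against 16.6%, 10.6% higher and 5.98% lower). Of the calls, 8 of 9 and 16 of 22 had no peak in 1 group. Leaving out IL-4 PT/LPS replicate 1 left 2 and 6 calls, and leaving out replicate 2 left 4 and 7. The Klf2 sums were lower after pretreatment, with RNAPII-pS5 at 97.2 and 109 in ctrl/LPS and 79.4 and 78.6 in IL-4 PT/LPS (-0.67 ± 0.10, limma adjusted p = 0.0112), where 13.0% of all genes were called, and RNAPII-pS2 at 166 and 187, then 108 and 90.7 (-0.88 ± 0.14, adjusted p = 0.0139), where 9.25% were. The region 3.6 kb downstream of the Klf2 start site followed the same order for RNAPII-pS2, with 44 and 35.9 in ctrl/ctrl, 19.2 and 23.9 in IL-4 PT/ctrl, 68.01 and 77.3 in ctrl/LPS, and 40.3 and 33.6 in IL-4 PT/LPS. Klf13 fell for RNAPII-pS5 (69 and 67.6, then 52.8 and 44.7, -0.78 ± 0.17, adjusted p = 0.0318). Klf6 rose for RNAPII-pS2 (244 and 234, then 346 and 339, 0.47 ± 0.07, adjusted p = 0.0109). This sign turned with only peaks that are not intergenic (-0.07) and with the highest peak (-0.15). None of these 4 sums passed with plain empirical Bayes. As listed, before centring, both Klf6 sums had their highest values in IL-4 PT/LPS, and the RNAPII-pS5 sum of Klf2 its lowest there. After centring, the RNAPII-pS5 sum of Klf6 was not higher than in ctrl/LPS (-0.12 ± 0.14, limma adjusted p = 0.655).

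At single sites, peaks of RNAPII-pS2 in IL-4 PT/LPS and in no other group were listed 12.4 kb upstream of Klf13 (10.9 and 11.96, 3.02 ± 0.21, limma adjusted p = 0.00144), 28.4 kb upstream of Klf7 (6.61 and 5.94, 2.16 ± 0.18), 246.5 kb upstream of Klf4 (8.25 and 11.96, 2.83 ± 0.26), and 228.4 kb downstream of Klf6 (8.25 and 12.8, 2.87 ± 0.28). RNAPII-pS5 peaks in that group alone were 266.1 kb (5.83 and 7.88, 2.23 ± 0.24, adjusted p = 0.00391) and 304.5 kb downstream of Klf6 (4.11 and 3.69, 1.43 ± 0.18), and at 198.1 kb upstream of Klf4 they were listed in both pretreated groups (5.78 and 8.26 with LPS). At 60.9 kb upstream of Klf13 RNAPII-pS5 was listed only in ctrl/LPS (7.21 and 5.3, -2.29 ± 0.25, adjusted p = 0.00415). Scores of this size are close to the lowest that the lists hold, and when missing peaks were set 4 times as high the difference 304.5 kb downstream of Klf6 turned to -0.57.

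For p65, the NF-κB subunit, the summed score of every member was higher in both ctrl/LPS samples than in both ctrl/ctrl samples. Klf7 went from 89.8 and 93.8 to 423 and 409, Klf3 from 68.2 and 79 to 308 and 304, and Klf6 from 57.5 and 39.9 to 209 and 196. Klf4 went from 68.6 and 72.9 to 153 and 162, Klf13 from 27 and 24.6 to 132 and 157, Klf2 from 26.4 and 19 to 114 and 111, and Klf10 from 6.9 and 16.1 to 80.4 and 67.5. The median gene shared in this, since centring removed a median shift of 1.64 in the gene sums (1.04 in the regions). Relative to it, Klf7 rose (0.54 ± 0.05, limma adjusted p = 0.00103) and Klf4 fell (-0.48 ± 0.08, adjusted p = 0.00671), where 31.4% of all genes were called. Without centring the Klf4 difference was 1.16, so the listed p65 scores of Klf4 were higher with LPS, by less than those of the median gene. With the highest peak in place of the sum it was 0.12, and neither sum passed with plain empirical Bayes.

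By region, p65 rose at 32 of 104 member regions with LPS and fell at 4 (34.6%, against 32.8% of all regions, 29.5% higher and 3.23% lower), and in 32 of these 36 calls 1 group had no peak. Peaks in both ctrl/LPS samples and neither ctrl/ctrl sample were listed at 39 of 66 member regions (55.8% over all regions), and the reverse at 2 (2.0%). Klf7 had 10 of 23 regions higher and Klf6 9 of 22. At 70.4 kb upstream of Klf7 p65 was listed only with LPS, at 27.1 and 25.7 in ctrl/LPS and 27.3 and 37.4 in IL-4 PT/LPS (4.64 ± 0.22, limma adjusted p = 0.000139), beside the RNAPII-pS2 and RNAPII-pS5 gained there. The other regions with the smallest p were 2.6 kb into Klf7 (none, then 21.4 and 23.4, 4.40 ± 0.17), 58.4 kb downstream of the Klf3 start site (none, then 15.8 and 14.8, 3.85 ± 0.17), and 1.7 kb into Klf10 (none, then 7.63 and 8.4, 2.92 ± 0.14), each with an adjusted p of 0.000139. The Klf6 start site was the only one with p65 in 2 or more samples, with 10.1 and 6.74 in ctrl/LPS and 10.02 and 11.6 in IL-4 PT/LPS (2.96 ± 0.25, adjusted p = 0.000494). The region 3.6 kb downstream of the Klf2 start site rose from 8.72 and 11.7 to 68.7 and 66.9 (1.70 ± 0.23, adjusted p = 0.0031). The strongest p65 region of the family, 30.9 kb downstream of the Klf3 start site, scored 49.4 and 63.2 without and 200.4 and 192 with LPS, and did not pass relative to the median (0.76 ± 0.30, adjusted p = 0.131). At 273.0 kb upstream of Klf4 p65 went from 4.89 and 3.08 to no peak (-2.92 ± 0.27, adjusted p = 0.000712). The sizes of differences with no peak in 1 group rest on the score set for a missing peak.

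**Figure D4:**
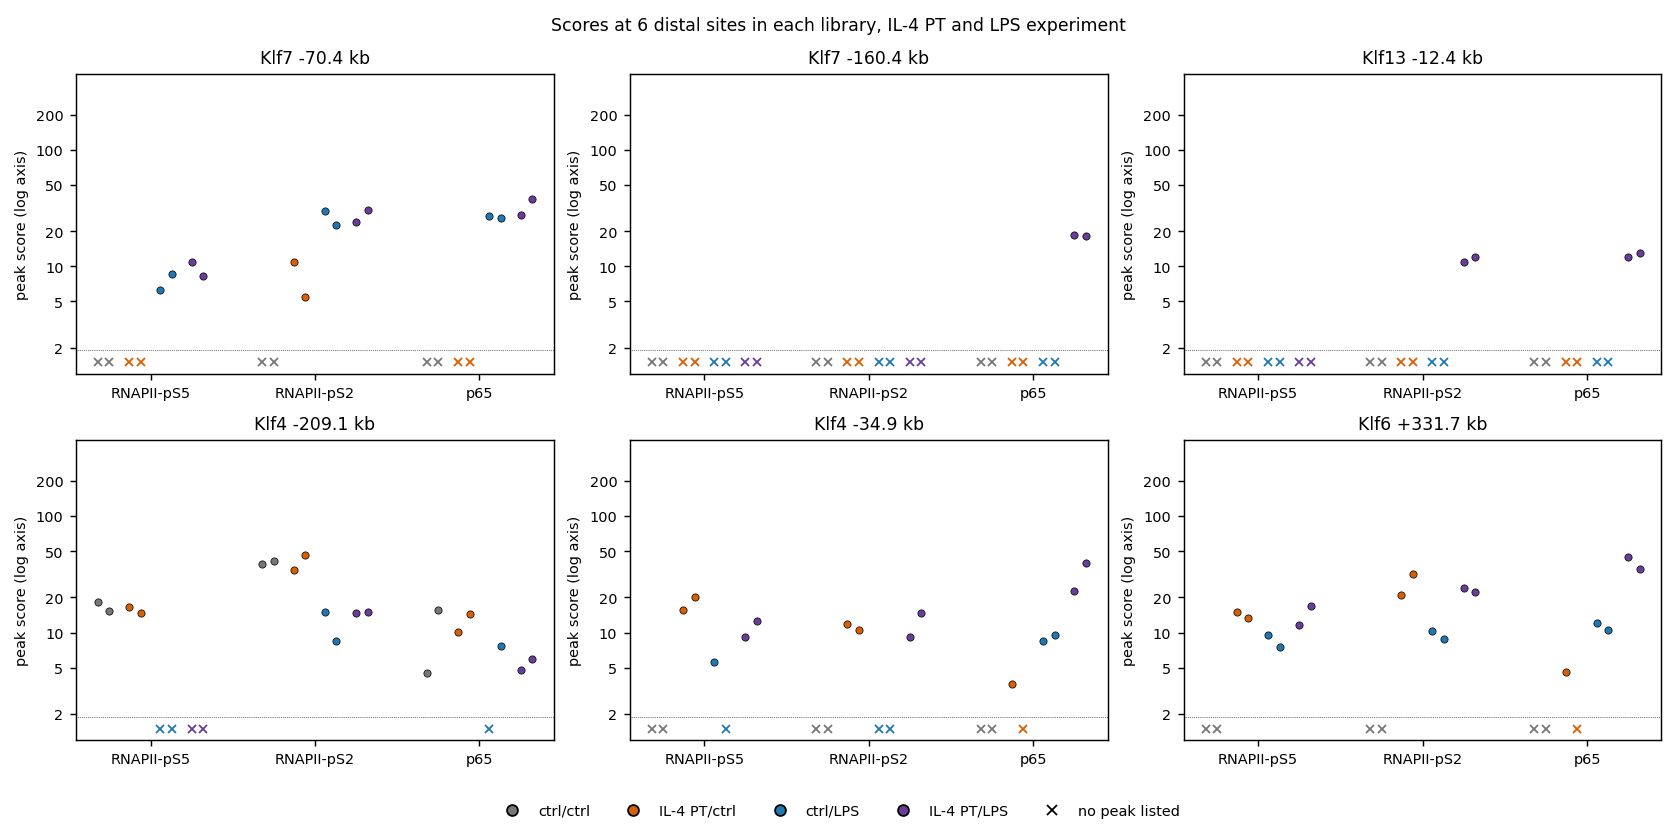
Peak scores (log axis) of RNAPII-pS5, RNAPII-pS2, and p65 in the 4 groups of the second experiment at 70.4 kb and 160.4 kb upstream of Klf7, 12.4 kb upstream of Klf13, 209.1 kb and 34.9 kb upstream of Klf4, and 331.7 kb downstream of the Klf6 start site, with crosses below the dotted line where no peak is listed. At 160.4 kb upstream of Klf7 and 12.4 kb upstream of Klf13 p65 is listed only in IL-4 PT/LPS, at 18.4 and 18.1, and 12 and 12.9.

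IL-4 pretreatment alone changed p65 at 3 of 104 member regions (2.88%, against 5.77% of all regions), 2 higher and 1 lower (3.44% and 2.33% of all regions), and leaving out each library gave 1 to 9. p65 was listed 101.4 kb upstream of Klf7 after pretreatment (5.67 and 5.9, none in ctrl/ctrl, 3.69 ± 0.35, limma adjusted p = 0.00397) and 538.4 kb upstream of Klf4 (3.27 and 4.91, 3.16 ± 0.58, adjusted p = 0.0477), and was lost 50.2 kb downstream of Klf6 (4.22 and 5.06, then none, -3.17 ± 0.17, adjusted p = 0.00113). The Klf7 sum fell from 89.8 and 93.8 to 64.5 and 62.2 (-0.39 ± 0.05, adjusted p = 0.00705), where 9.3% of all genes were called. Most called sums for IL-4 pretreatment alone, with those of the polymerase counted, did not pass with plain empirical Bayes. Each of the p65 scores given here was low beside those with LPS. The lowest listed p65 score was 1.31, so the differences of the 3 regions exceed what listed scores alone could give. Their size rests on the score set for a missing peak.

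With LPS, pretreated cells had p65 higher at 21 of 104 member regions and lower at 4 (24.0%, against 28.0% of all regions, 23.2% higher and 4.82% lower), of which 21 of 25 had no peak in 1 group. Without IL-4 PT/LPS replicate 1 the count was 5 and without replicate 2 it was 4. p65 was listed only in IL-4 PT/LPS 160.4 kb upstream of Klf7 (18.4 and 18.1, 3.84 ± 0.19, limma adjusted p = 0.000151), 12.4 kb upstream of Klf13 (12 and 12.9, 3.28 ± 0.16), and 203.2 kb (10.1 and 11.1, 3.05 ± 0.15) and 206.5 kb upstream of Klf4 (11.8 and 12.7, 3.26 ± 0.16). These p65 regions entered the test only through IL-4 PT/LPS, and all samples of the other groups held the score set for a missing peak. The Klf13 site is the one where RNAPII-pS2 was listed in that group alone. At 34.9 kb upstream of Klf4 p65 scored 8.38 and 9.44 in ctrl/LPS and 22.7 and 39.9 in IL-4 PT/LPS, with 1 peak of 3.59 in IL-4 PT/ctrl and none in ctrl/ctrl, and no comparison there passed. The p65 sums with LPS were 252 and 276 after pretreatment for Klf4, 380.0 and 399 for Klf6, and 530.1 and 584 for Klf7, each above both ctrl/LPS values, but the lists of IL-4 PT/LPS were also longer and no sum passed after centring (10.4% of all genes did).

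The response to LPS itself was compared between pretreated cells and cells not pretreated, as an interaction term. For RNAPII-pS5 6 of 66 member regions had a higher response and 9 a lower one (22.7%, against 17.4% of all regions, 9.28% higher and 8.07% lower), but leaving out each library in turn left 0 to 4 of them. For RNAPII-pS2 11 were higher and 11 lower of 106 (20.8% against 20.3%, 11.5% higher and 8.72% lower), with 4 to 19 when a library was left out, and for p65 21 higher and 7 lower of 104 (26.9% against 26.0%, 20.3% higher and 5.65% lower), with 4 to 29. At 331.7 kb downstream of Klf6 RNAPII-pS2 scored 10.4 and 8.79 in ctrl/LPS and 24.2 and 22.3 in IL-4 PT/LPS, beside no peak and 20.8 and 31.9 without LPS, so that the scores with LPS lay above those without it in cells not pretreated and overlapped them in pretreated cells, and the interaction was -3.05 ± 0.32 (limma adjusted p = 0.00503). At 101.4 kb upstream of Klf7 p65 scored 31.96 and 17.3 in ctrl/LPS and 17.8 and 17.7 in IL-4 PT/LPS, and since pretreated cells had p65 there without LPS the interaction was -4.36 ± 0.50 (adjusted p = 0.00224). Both ctrl/ctrl samples held the score set for a missing peak there, and the size of this value rests on it. For the Klf7 sum the p65 interaction was 0.31 ± 0.07 (adjusted p = 0.0473, where 13.3% of all genes were called). It was -0.10 with only peaks that are not intergenic, and it did not pass with the highest peak, with plain empirical Bayes, with the replicate block, or without 7 of the 8 libraries, 1 at a time. No sum passed for RNAPII-pS5 or RNAPII-pS2, where 2.68% and 3.9% of all genes did.

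**Figure D5:**
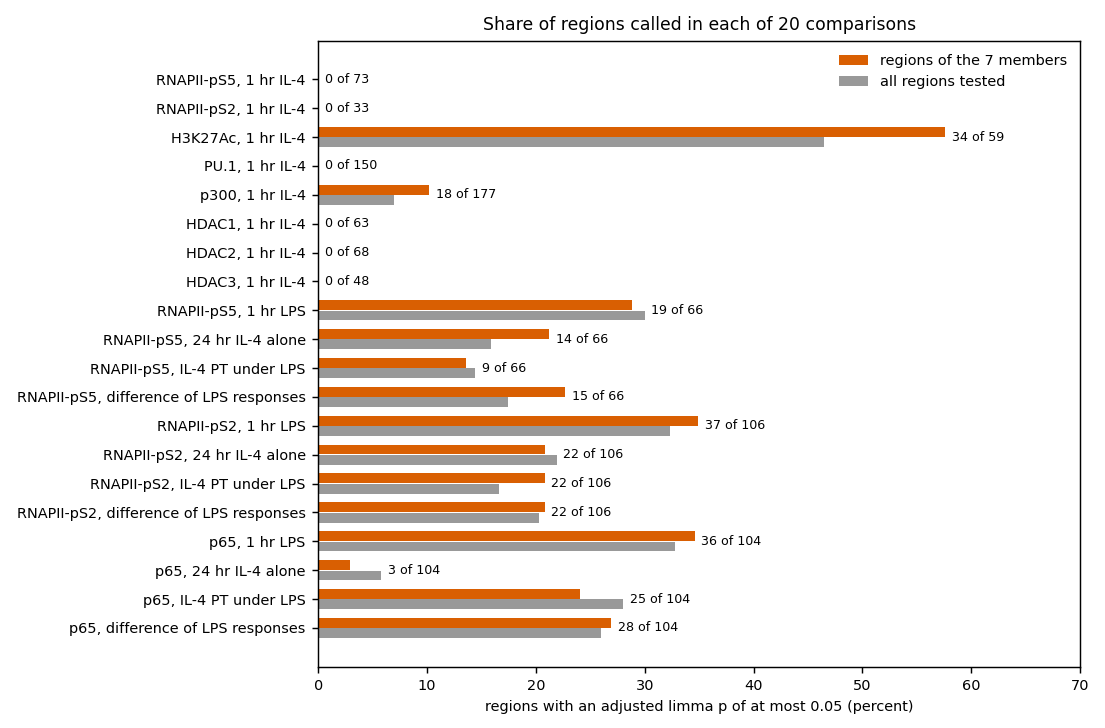
Percent of regions called by limma at an adjusted p of at most 0.05 in each of the 20 comparisons, for the member regions (orange) and all regions (grey). The member share was 57.6% against 46.5% for H3K27Ac, 10.2% against 6.99% for p300, and 2.88% against 5.77% for p65 with IL-4 pretreatment alone.

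The related genes that are not members, 18 other Klf and Sp genes with peaks, had fewer regions. For H3K27Ac after 1 hr of IL-4, 3 of their 24 regions rose and 4 fell (21.9% and 24.6% of all regions). For p300 1 rose and 1 fell of 59 (5.8% and 1.19%). With LPS, RNAPII-pS5 rose at 3 and fell at 7 of 22 (11.2% and 18.8% of all regions). RNAPII-pS2 then rose at 1 and fell at 4 of 28 (17.7% and 14.6%), and p65 rose at 3 and fell at 2 of 25 (29.5% and 3.23%). Under LPS, pretreatment raised p65 at 11 of 25 and lowered it at 1 (23.2% and 4.82% of all regions). No test of the difference between the members and these genes was made.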

How the data were processed

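Peak lists of 56 ChIP-seq samples, 1 per sample, were analysed, with groups, doses, and replicate numbers taken from the sample labels. The authors aligned reads to mm10, called peaks in each sample with MACS2 (for H3K27Ac with HOMER), left out blacklisted regions, and gave each peak a gene name with HOMER. Their processing notes name BWA 0.7.10, SAMtools 0.1.19, HOMER 4.2, and MACS2 2.0.10. The scores that the authors deposited are −log10 values of a p-value or q-value, inferred from the values since the header does not say which, and for H3K27Ac a signal of normalized tags. The lists hold no reads, so depth is unknown and such a score rises with depth, which limits the comparison of samples with lists of different length. The labels give the HDAC3 and H3K27Ac antibodies the same catalogue number.

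Peaks overlapping by at least 1 bp were merged per antibody and experiment, and a region took the highest score of each sample. The log2 scores were centred, and a missing peak then received the lowest centred score. Regions with a peak in at least 2 samples, and sums of scores over all peaks with a gene's name, were compared with limma 3.58.1 in R 4.3.3 (trended, robust empirical Bayes), with Benjamini-Hochberg adjustment over all regions or genes and a threshold of 0.05. A first version set missing peaks before centring. This order was changed after its results had been seen, because for p65 with LPS it called 14 of 49 member regions between groups that both had no peak, against 0 in the order used. Plain empirical Bayes was likewise added after the data were seen. Regions were named by a fixed rule: per antibody the region nearest the start site within 1000 bp with the highest score, the region with the highest mean score, and per comparison up to 4 called regions by smallest p, or the smallest p where none was called. Other regions were named for their values at the same places or chosen after their values were seen. The members and lists were chosen with earlier results of these data known. The fits were also run on simulated scores, which held no set value for missing peaks, so that run does not bear on calls where a group had no peak. The study calls the 2 samples of a group biological replicates, and nothing in the labels says from which mice they came. Deviations of samples with the same replicate number were hardly correlated (between -0.048 and 0.060). With 2 samples per group, this cannot show whether such samples came from the same mice. Python 3.11.15, NumPy 2.4.6, and pandas 2.3.3 were used. The alternatives are given in the closing section.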

Additional observations from a re-analysis of the deposited data

Results flagged for a closer look

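The results given here are those in which the response to LPS differed between cells pretreated with IL-4 for 24 hr and cells not pretreated, by the interaction term of limma at an adjusted p of at most 0.05, among the named regions and the gene sums. For RNAPII-pS5 the interaction was -2.75 at 331.7 kb downstream of Klf6, -2.31 at 279.4 kb upstream of Klf4, -2.16 at 6.0 kb downstream of the Klf4 start site, and 2.23 at 266.1 kb downstream of Klf6. The peaks 279.4 kb upstream and 6.0 kb downstream of Klf4 were listed in IL-4 PT/ctrl only, and those 266.1 kb downstream of Klf6 in IL-4 PT/LPS only. At 331.7 kb downstream of Klf6 merging by overlap of centres turned the value to 1.61. Leaving out 1 library at a time ended the call in 6, 5, 6, and 4 of 8 cases for these RNAPII-pS5 regions in the order given, and left 0 to 4 of the 15 member regions called for this interaction. With missing peaks 4 times as high none of the 4 passed.

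For RNAPII-pS2 the interaction was 3.02 at 12.4 kb upstream of Klf13, -3.05 at 331.7 kb downstream of Klf6, -2.25 at 43.0 kb upstream of Klf4, and 2.16 at 28.4 kb upstream of Klf7. For p65 it was 3.84 at 160.4 kb upstream of Klf7, 3.28 at 12.4 kb upstream of Klf13, 3.26 at 206.5 kb upstream of Klf4, and 3.05 at 203.2 kb upstream of Klf4. These 4 p65 regions and the RNAPII-pS2 regions of Klf13 and Klf7 had peaks in IL-4 PT/LPS only, so each value is the distance from the score set for a missing peak. With missing peaks 4 times as high none of the 4 RNAPII-pS2 regions passed, while the 4 p65 regions did. For the p65 sum of Klf7 the interaction was 0.31, but with only peaks that are not intergenic it was -0.10, and it did not pass with plain empirical Bayes or without 7 of the 8 libraries, 1 at a time.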

How the results depend on the processing

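Counts of called member regions moved by more than 1.5 times, or from 0, under these settings. With a peak required in every sample they were 3 (RNAPII-pS5, 1 hr IL-4), 2 (RNAPII-pS2, 1 hr IL-4), 5 (PU.1), 2 (HDAC3), 8, 2, 1, and 1 (RNAPII-pS5 with LPS, with 24 hr IL-4 alone, with pretreatment under LPS, and for the difference of responses), 11, 7, 5, and 0 (RNAPII-pS2, same order), and 8, 0, and 0 (p65 with LPS, with pretreatment under LPS, and for the difference), which by construction leaves out every presence or absence of a peak. With missing peaks 4 times as high they were 1 (RNAPII-pS2, 1 hr IL-4), 1 (PU.1), 31 (p300), 10, 3, 1, and 0 (RNAPII-pS5, second experiment), 23, 11, 9, and 0 (RNAPII-pS2), and 23, 1, 14, and 11 (p65, in the order LPS, 24 hr IL-4 alone, pretreatment under LPS, difference). Setting missing peaks before centring gave 2 (RNAPII-pS5), 1 (RNAPII-pS2), 2 (PU.1), 44 (p300), and 3 (HDAC3) at 1 hr. Over all regions this setting called 349 of 32095, 412 of 18314, 154 of 67996, 15543 of 67229, and 140 of 12567, in the same order. No centring gave 0 for p300. No filter gave 1 (RNAPII-pS5) and 1 (RNAPII-pS2) at 1 hr, 7 (PU.1), and 6 (RNAPII-pS5, difference). Merging by overlap of centres gave 2 (RNAPII-pS5, 1 hr IL-4) and 9 (RNAPII-pS5, 24 hr IL-4 alone). Plain empirical Bayes gave 30 (p300) and 6 (RNAPII-pS5, 1 hr IL-4), and ranks gave 50 (p300), 2 (RNAPII-pS5, 1 hr IL-4), and 14 (p65, difference). The upper 50% of peaks gave 1 (RNAPII-pS2, 1 hr IL-4), 2 (PU.1), 7, 3, and 1 (RNAPII-pS5 with 24 hr IL-4 alone, pretreatment under LPS, difference), 6 (RNAPII-pS2, difference), and 16 and 14 (p65, LPS and difference). An unadjusted p gave 23 (RNAPII-pS5), 9 (RNAPII-pS2), 26 (PU.1), 55 (p300), 14 (HDAC1), 7 (HDAC2), and 11 (HDAC3) at 1 hr, and 15 (RNAPII-pS5) and 38 (RNAPII-pS2) for pretreatment under LPS and 8 (p65, 24 hr IL-4 alone). Where no count or share over all regions is given, these counts say only how the member calls moved. The cause of these changes was not tested further. With the replicate number as a block, the p300 count was 11, no other count of calls moved by over 1.5 times, and the sums of Klf10 (p300) and Klf7 (p65, difference) no longer passed. Whether samples with the same replicate number were paired is not known.

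Leaving out each replicate in turn gave, at 1 hr of IL-4, 2 to 6 calls for RNAPII-pS5, 1 to 4 for RNAPII-pS2, 27 to 35 for H3K27Ac, 0 to 12 for PU.1, 14 to 83 for p300, 0 to 0 for HDAC1 and HDAC2, and 1 to 7 for HDAC3. Shares over all regions are not given for these leave-out counts, which say only how the member calls moved. A lone sample of a group was assumed to vary like the other groups. Of these libraries, the count was 47 without p300 untreated replicate 1 and 83 without untreated replicate 2, 12, 8, and 2 without PU.1 untreated replicate 1, untreated replicate 2, and IL-4 replicate 1, and 7, 5, 2, and 1 without HDAC3 untreated replicates 1 and 2 and IL-4 replicates 1 and 2. In that order of 4 libraries it was 4, 6, 2, and 4 for RNAPII-pS5 and 1, 1, 4, and 2 for RNAPII-pS2. In the second experiment the ranges were 14 to 19, 6 to 15, 2 to 9, and 0 to 4 for RNAPII-pS5 (LPS, 24 hr IL-4 alone, pretreatment under LPS, difference), 20 to 42, 14 to 26, 6 to 25, and 4 to 19 for RNAPII-pS2, and 32 to 44, 1 to 9, 4 to 33, and 4 to 29 for p65. The p65 counts for pretreatment under LPS and for the difference fell to 5 and 4 without IL-4 PT/LPS replicate 1, and to 4 and 5 without replicate 2. RNAPII-pS2 with LPS fell to 20 and 23 without ctrl/ctrl replicates 1 and 2, and under pretreatment to 13 without ctrl/LPS replicate 2 and to 6 and 7 without IL-4 PT/LPS replicates 1 and 2.

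Of 31 called sums of members, the direction was kept and the call lost for 22 with plain empirical Bayes, 18 with the highest peak, 13 with only peaks that are not intergenic, 9 with the upper 50% of peaks, and 8 without centring. Leaving out 1 library at a time lost 54 calls of sums and kept 146. Of the named regions 21 lost the call with missing peaks 4 times as high. Some differences turned sign. With only peaks that are not intergenic the sums gave 1.86 (Klf10 H3K27Ac), 1.37 (Klf10 p300), -1.27 (Klf6) and -1.35 (Klf7) for RNAPII-pS5 with LPS, -0.29 (Klf3), -1.43 (Klf6), -0.09 (Klf7), and -1.11 (Klf13) for RNAPII-pS2 with LPS, -0.07 (Klf6 RNAPII-pS2, pretreatment under LPS), and -0.10 (Klf7 p65, difference). With the highest peak of the gene in place of the sum they were -0.57 (Klf7 RNAPII-pS5, LPS), -0.05 (Klf7 RNAPII-pS2, LPS), -0.08 and -0.15 (Klf6 RNAPII-pS2, 24 hr IL-4 alone and pretreatment under LPS), and 0.12 (Klf4 p65, LPS). Without centring they were 0.42 (Klf10 p300) and 1.16 (Klf4 p65, LPS). At single regions, RNAPII-pS5 304.5 kb downstream of Klf6 gave -0.57 for pretreatment under LPS with missing peaks 4 times as high, and 331.7 kb downstream of Klf6 gave 1.61 for the difference with merging by overlap of centres. No other named region turned under the settings run. Without reads, a missing peak cannot be told from a weak one.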

Other observations

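For each member, the 2 genes outside the family with the most similar RNAPII-pS5 pattern were taken from 4926 genes with a peak in all 12 RNAPII-pS5 samples, by Pearson's r of the centred log2 sums. The 12 samples come from 2 experiments and share libraries between genes, so r is a description. The genes were Fcgr4 (0.954) and Dr1 (0.942) for Klf2, Siglecg (0.952) and Ccdc50 (0.936) for Klf3, Cerk (0.951) and Arhgef1 (0.937) for Klf4, and G530011O06Rik (0.98) and Lilrb4 (0.977) for Klf6. For Klf7 they were Arid5b (0.962) and Pou1f1 (0.943), for Klf10 5430435G22Rik (0.89) and Esd (0.889), and for Klf13 Slc25a37 (0.967) and 4930581F22Rik (0.964).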
